A study of Mus musculus with 18 samples.

Results

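The immunoproteasome and major histocompatibility complex (MHC) class I genes described here are Psmb8, Psmb9, Psmb10, Psme1, Psme2, Tap1, Tap2, B2m, H2-K1 and H2-D1. These 10 genes, of 22524 in the counts, were chosen by their measured values, because the immunoproteasome subunits were lower in the liver of Rps2-A226Y mice than in that of wild-type (WT) mice. Their difference between the genotypes is therefore given as a description, with no p-value. How many of them passed the threshold used for all genes is counted only beside the share of all genes that did. P-values are kept for genes outside these 10 and for variation among mice of 1 genotype. The lists of other genes were also drawn up with earlier results of this contrast known. Most genes named from them are those of smallest p, so their p-values are not independent evidence of a direction.

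The proteasome degrades proteins into peptides, and its constitutive core carries 3 kinds of catalytic subunit. In immune cells, and in other cells exposed to interferon-gamma, these are replaced by Psmb8, Psmb9 and Psmb10, which take the places of Psmb5, Psmb6 and Psmb7, and the activator PA28, built from the chains Psme1 and Psme2, binds the ends of the core. Peptides then pass into the endoplasmic reticulum through the transporter formed by Tap1 and Tap2 and are loaded onto a class I heavy chain such as H2-K1 or H2-D1, which reaches the cell surface together with the light chain B2m. Hepatocytes carry little surface class I at rest, whereas Kupffer cells, the resident macrophages, and other leukocytes of the liver express this machinery strongly.

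Liver RNA of female mice aged 15 months was sequenced, with 1 library per mouse, for 10 heterozygous Rps2-A226Y mice and 8 WT controls. Rps2 encodes a protein of the small ribosomal subunit, and the A226Y allele makes ribosomes that misread codons. The allele was made in 129/Sv embryonic stem cells, backcrossed to C57BL/6 and kept silent by a transcriptional stop cassette between loxP sites until Cre under the CMV promoter removed the cassette. Removal was partial, so that each A226Y liver was a mosaic of cells with the excised mutant allele and cells in which the cassette still silenced the targeted copy, and the WT controls carried CMV-Cre as well. Total counts ran from 23850565 to 62126131 per library, the highest being that of A226Y mouse 23. Rps2 itself, measured over both alleles together, lay at 46.9, 72.5 and 83.0 CPM (counts scaled to 1e+06 per library; lowest, median and highest) in A226Y and at 104, 109 and 143 CPM in WT, with no overlap, and was lower in A226Y by a log2 fold change of -0.73 (SE 0.11, adjusted p = 0.00077). Hepatocyte markers, summed over a list of 8, reached 70700 to 144400 CPM in A226Y and 84980 to 171100 CPM in WT, as the label of liver requires.

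All 10 genes passed the filter on low counts, and in mouse genome build GRCm38 they lay on 4 chromosomes. H2-K1 (17:33996017-34000347), Psmb9 (17:34181987-34187764), Tap1 (17:34187553-34197225), Psmb8 (17:34197721-34201454), Tap2 (17:34203527-34216321) and H2-D1 (17:35262730-35267499) belong to the MHC region of chromosome 17, at 9.28 to 10.5 Mb from the targeted Rps2 locus on the same chromosome (17:24718116-24721929). Psmb10 lay on chromosome 8 (105935735-105938444), Psme1 and Psme2 lay near each other on chromosome 14 (55578123-55581529 and 55587441-55591113), and B2m lay on chromosome 2 (122147686-122153083). All these stretches are whole gene spans with exons, introns and untranslated ends. Between 24 and 36 Mb of chromosome 17, 277 other genes were tested, of which 34 (12.3%) were lower and 14 (5.05%) were higher in A226Y, against 7.03% and 7.27% of all genes. Their median log2 fold change was -0.08. Only the 10 genes were left out of this window, so other genes of the MHC region are counted in it. Linked 129/Sv sequence around the targeted locus and the A226Y allele cannot be told apart among the mice used here. The paper also compared mice with the unexcised targeted allele, which are not among these, with their own WT controls. It reported few differing genes there.

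Sequences before the RefSeq start are shown for 4 of the genes. Most pairs of the group were positively correlated from mouse to mouse, and these stretches carry matches to binding motifs of interferon and inflammatory signalling. They are RefSeq sequences of build GRCm38.p6, printed 5′ to 3′ on the strand of the gene. The H2-D1 and Psmb8 stretches lie before the RefSeq start but inside exons of longer GENCODE M21 transcripts, so only 30 bases of each are given. Capitals mark, in B2m (chr2:122147537-122147685, plus strand), an interferon-stimulated response element (ISRE) followed by an NF-kB match, in H2-K1 (chr17:34000349-34000467, minus strand) and H2-D1 (chr17:35262915-35262944, plus strand) an NF-kB match, and in Psmb8 (chr17:34198088-34198117, plus strand) a gamma-activated site (GAS).
B2m: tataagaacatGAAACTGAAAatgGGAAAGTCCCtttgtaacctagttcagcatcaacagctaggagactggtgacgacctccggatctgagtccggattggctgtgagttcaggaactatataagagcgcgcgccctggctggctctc
H2-K1: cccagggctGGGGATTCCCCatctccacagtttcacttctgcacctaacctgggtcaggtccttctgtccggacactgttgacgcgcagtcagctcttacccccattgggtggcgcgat
H2-D1: ccagggctGGGGATTCCCCatctcctcagt
Psmb8: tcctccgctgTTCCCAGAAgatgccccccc
The 11 capitals in H2-K1 and in H2-D1 are overlapping matches of both strands at 1 place. From that place on, 89 of 100 bases were identical between the H2-K1 and H2-D1 upstream regions in an alignment without gaps.

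Windows of 250 bases before to 50 bases after the RefSeq start were found for 9 of the 10 genes, all but Tap2, and were searched on both strands. The ISRE letters GAAANNGAAA were present in 2 of the 9 windows (B2m, and Psme1 within the bases after the start), against 3.49% of 27025 genes. GAS, as TTCNNNGAA, was in 1 (Psmb8), against 8.47% of genes. NF-kB consensus matches were in 3 (B2m, H2-K1, H2-D1), against 8.18%. CCAAT was in 5, against 37.9%. Psmb9 and Tap1 are transcribed away from each other, and 225 bases separate their RefSeq starts. Their windows overlap, and the CCAAT match counted for each is 1 and the same place. A match describes letters, not a bound site, and its absence says only that these letters are not in the window.

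The 3 inducible catalytic subunits had the largest differences of the group, with log2 fold changes between -0.67 and -0.81. Psmb8, the chymotrypsin-like subunit, lay at 15.7, 19.95 and 37.3 CPM (lowest, median, highest) in A226Y and at 19.1, 31.99 and 51.6 CPM in WT. Of the 10 A226Y mice, 9 were below the WT mean, and the exception was mouse 29 at 37.3 CPM, so that the groups overlapped. The log2 fold change was -0.67 (SE 0.18). Psmb9, the caspase-like position's replacement, reached 5.61, 9.08 and 14.3 CPM in A226Y and 5.67, 15.8 and 23.1 CPM in WT. All 10 A226Y mice were below the WT mean, while the lowest WT mouse, mouse 6, lay among the lowest A226Y mice, and the log2 fold change was -0.81 (SE 0.22). Psmb10, which replaces the trypsin-like subunit, lay at 20.1, 25.3 and 32.3 CPM in A226Y and at 27.2, 46.3 and 59.3 CPM in WT. Here 7 of 8 WT mice lay above every A226Y mouse and only WT mouse 6 reached into the A226Y range, with a log2 fold change of -0.79 (SE 0.14).

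The PA28 chains differed less, and with little spread. Psme1 lay at 59.8, 65.0 and 74.3 CPM in A226Y and at 69.5, 89.3 and 94.7 CPM in WT. Below every WT mouse were 8 of 10 A226Y mice, and the log2 fold change was -0.37 (SE 0.07). Psme2 lay at 16.6, 18.9 and 25.5 CPM in A226Y and at 17.4, 24.2 and 28.9 CPM in WT, with a log2 fold change of -0.30 (SE 0.09). Its highest A226Y value came from mouse 23, the library with the largest total count, and its ranges overlapped over most of their length.

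Both chains of the peptide transporter had lower means in A226Y. Tap1 lay at 10.4, 15.0 and 32.1 CPM in A226Y and at 15.3, 24.2 and 29.7 CPM in WT, a log2 fold change of -0.52 (SE 0.17). Mouse 29 alone exceeded every WT mouse, while 6 of the other A226Y mice were below all of them. Tap2 lay at 18.7, 23.5 and 32.8 CPM in A226Y and at 22.8, 28.7 and 39.0 CPM in WT, a log2 fold change of -0.33 (SE 0.13), with 3 A226Y mice below and 3 WT mice above the whole of the other group.

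The class I light and heavy chains, by far the most abundant of the group, had the smallest differences. B2m lay at 1221, 1387 and 1606 CPM in A226Y and at 1187, 1711 and 2020 CPM in WT, a log2 fold change of -0.25 (SE 0.09). Its lowest value of all was that of WT mouse 6, and 6 of 8 WT mice lay above every A226Y mouse. H2-K1 lay at 1183, 1275 and 1969 CPM in A226Y and at 1333, 1451 and 1730 CPM in WT, a log2 fold change of -0.16 (SE 0.09). For this heavy chain 9 A226Y mice were below every WT mouse and mouse 29 was above every one. H2-D1 showed the same arrangement in weaker form, at 517, 563 and 1216 CPM in A226Y and 578, 658 and 875 CPM in WT, with 6 A226Y mice below all WT mice, mouse 29 above all and a log2 fold change of -0.08 (SE 0.14).

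**Figure D1:**
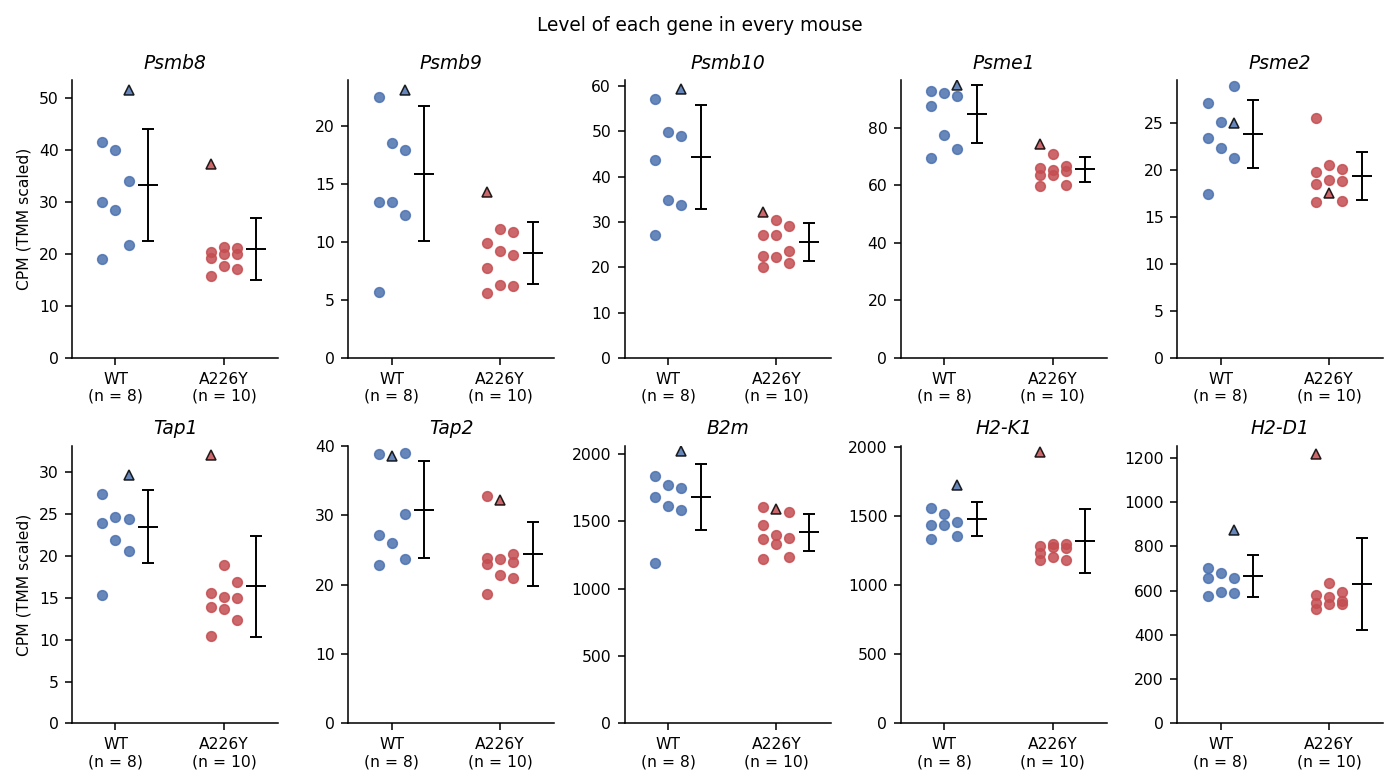
Level of the 10 genes in each mouse, as CPM after TMM scaling on axes that start at 0. Points are mice, triangles are A226Y mouse 29 and WT mouse 33, and bars give the mean and SD of each genotype; mouse 29 stands above the other A226Y mice for Psmb8, Tap1, H2-K1 and H2-D1.

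Over all 10 genes the log2 fold change was below 0, with a median of -0.35 against -0.0044 for all 13353 genes tested. At an adjusted p under 0.05, 6 of the 10 (Psmb8, Psmb9, Psmb10, Psme1, Psme2 and Tap1) were called lower. Over all genes 14.3% were called, 7.03% lower and 7.27% higher, and since the genes were selected on this contrast nothing is read from the count. Of the called genes 50.8% were higher with TMM scaling and 67.9% with library size alone. None of the 10 had every A226Y mouse below every WT mouse, which 0.285% of all genes did.

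The count depended on single mice. Without A226Y mouse 29 all 10 genes were called lower, while calls over all genes rose from 14.3% to 19.2%, and H2-D1 and H2-K1 had both a log2 fold change of -0.24. With 4 surrogate variables as covariates none of the 10 was called, with 0.374% of all genes called. The log2 fold changes were then -0.23 for Psmb8, -0.09 for Psmb9, -0.32 for Psmb10, -0.21 for Psme1, -0.04 for Psme2 and -0.30 for Tap1, and B2m turned to 0.01. Mouse 29 was the highest A226Y mouse for 7 of the 10 genes. It also had the highest A226Y sum of the pan-leukocyte markers (168 CPM, against a median of 61.8 CPM), of the Kupffer cell and macrophage markers (1497 against 525 CPM) and of the neutrophil markers (41.4 against 3.22 CPM), and the lowest A226Y sum of the hepatocyte markers (70700 against 122100 CPM). WT mouse 33 was the highest WT mouse for 8 of the 10 genes and for the same 3 lists, with 170 CPM of pan-leukocyte markers, and in contrast to mouse 29 it had the highest hepatocyte sum of its group (171100 CPM). WT mouse 6 was the lowest of its group for 9 of the 10 genes and for the pan-leukocyte and Kupffer cell sums (60.0 and 578 CPM).

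Marker levels of leukocytes are given beside these genes for each group. The 6 pan-leukocyte markers summed to between 48.7 and 168 CPM in A226Y and between 60.0 and 170 CPM in WT, with medians of 61.8 and 94.5 CPM. All 6 had a negative log2 fold change (median -0.40), and 0 passed by edgeR or DESeq2, with 2 at an unadjusted p under 0.05 in each. Without A226Y mouse 29, however, 5 of the 6 were lower. Kupffer cell and macrophage markers summed to between 381 and 1497 CPM in A226Y and between 578 and 1175 CPM in WT. Of these 11 markers, 10 had a negative value, and 1, Clec4f, was lower (log2 fold change -0.65, SE 0.19, adjusted p = 0.026), which rose to 8 without mouse 29. T and NK cell markers summed to between 5.47 and 16.5 CPM in A226Y and between 8.51 and 22.7 CPM in WT, with 0 of 13 called by edgeR (2 at an unadjusted p under 0.05), 1 by DESeq2 and 3 lower without mouse 29. In B and plasma cells 1 of 9 markers was lower, the immunoglobulin light chain gene Iglc2 (log2 fold change -2.97, SE 0.82, adjusted p = 0.022; not called by DESeq2). Its WT values ran from 0.575 to 45.6 CPM, while its medians were 0.66 CPM in A226Y and 1.10 CPM in WT. The median sum of this list was higher in A226Y (124.5 CPM) than in WT (105.9 CPM), where mice 33 and 13 reached 1110 and 612 CPM. No marker of dendritic cells (4 tested), neutrophils (3), sinusoidal endothelium (5) or cholangiocytes (5) was called by edgeR or DESeq2, with 1 marker of each list at an unadjusted p under 0.05 in edgeR. Of 6 stellate cell markers 4 had a positive value (median 0.03), with median sums of 398 CPM in A226Y and 349 CPM in WT. The collagen gene Col1a1, was lower (log2 fold change -0.77, SE 0.20, adjusted p = 0.016), and DESeq2 called 1 lower and 1 higher. Of 8 hepatocyte markers 7 had a positive value (median 0.19), and 1, the urea cycle enzyme Cps1, was higher (log2 fold change 0.55, SE 0.14, adjusted p = 0.014), whereas DESeq2 called 2 higher and 1 lower. With the mean of the pan-leukocyte markers as a covariate, 3 of the 10 genes were called (10.1% of all genes), with a median of -0.27. With that of the Kupffer cell markers it was 2 genes (7.37% of all genes) and -0.26, and H2-D1 turned to 0.10 and 0.12 under these covariates. In bulk tissue, fewer cells of a type and less RNA per cell cannot be told apart.

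Genes of the MHC class II pathway, which antigen-presenting cells use, were lower in A226Y for 6 of 7 genes tested, at a median of -0.83 on the log2 scale. Their sum was 85.2 to 242 CPM in A226Y and 145 to 453 CPM in WT. The invariant chain Cd74 lay at 41.8, 68.8 and 117 CPM in A226Y and at 72.5, 115 and 218 CPM in WT (log2 fold change -0.83, SE 0.20, adjusted p = 0.011), and H2-Ab1, a class II chain, differed by -0.88 (SE 0.22, adjusted p = 0.013). Ciita, the class II transactivator, had a value of -0.55 (SE 0.30, adjusted p = 0.23). The part of cell numbers in these differences was not tested.

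Of the 14 constitutive core subunits of the proteasome, 0 were called by edgeR, 1 by DESeq2 and 1 by edgeR without A226Y mouse 29, with 1 at an unadjusted p under 0.05. Their median was 0.08 on the log2 scale. The subunit closest to a call was Psmb3 (log2 fold change 0.24, SE 0.08, adjusted p = 0.060), which was called higher by DESeq2, with library size scaling and with the length offset. Psmb5, whose place Psmb8 takes, lay at 37.8, 48.7 and 66.0 CPM in A226Y and at 35.1, 45.4 and 60.2 CPM in WT (log2 fold change 0.07, SE 0.10, adjusted p = 0.67). Psmb6 had a log2 fold change of -0.07 (SE 0.08, adjusted p = 0.58), and Psmb7 one of -0.02 (SE 0.08, adjusted p = 0.91). Among 8 assembly factors and other regulators, 1 was higher. This was Psme3, the nuclear PA28 chain that is not induced by interferon, at 64.2, 68.9 and 75.5 CPM in A226Y and 54.5, 62.0 and 65.8 CPM in WT (log2 fold change 0.17, SE 0.05, adjusted p = 0.018).

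Set against their constitutive counterparts per kilobase of exon, the inducible subunits had lower median ratios in A226Y. Psmb8 was at 8.22%, 10.6% and 20.3% of the Psmb5 level (lowest, median and highest) in A226Y, and at 8.43%, 17.4% and 39.0% in WT. Psmb9 came to 2.26%, 3.51% and 6.43% of Psmb6 in A226Y and to 1.96%, 5.97% and 12.1% in WT. Psmb10 came to 28.8%, 35.98% and 59.8% of Psmb7 in A226Y and to 33.7%, 66.6% and 110% in WT. All 10 A226Y mice were below the WT mean for Psmb9 and for Psmb10 and 9 for Psmb8, although the ranges overlapped for each ratio. The inducible subunits were chosen as lower in A226Y and their counterparts differed little. Lower ratios therefore follow from the choice and are a description only. The size of a ratio depends on the length used, the median ratio of Psmb8 to Psmb5 being 18.8% in A226Y and 30.8% in WT with the longest transcript in place of all exons.

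**Figure D2:**
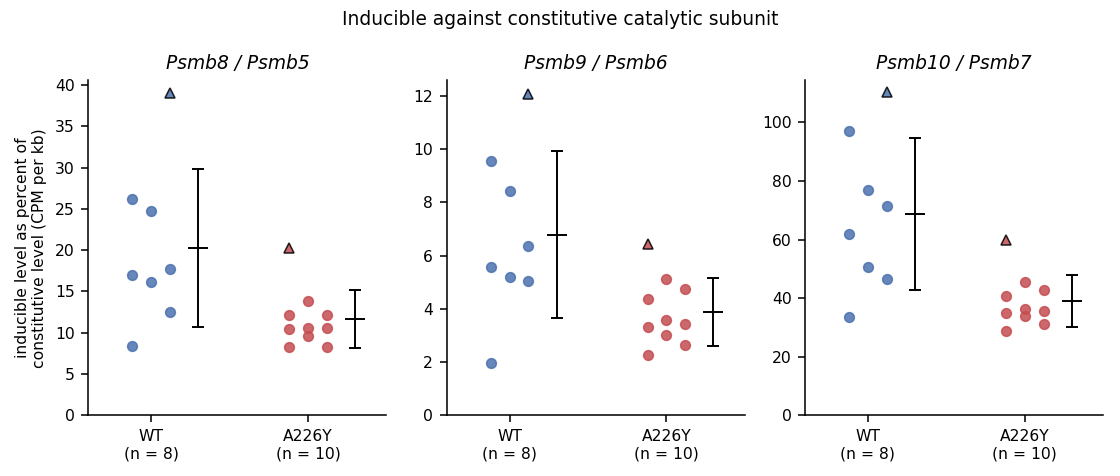
Level of each inducible catalytic subunit as a percent of its constitutive counterpart, from CPM per kilobase of exon, in each mouse. Triangles are A226Y mouse 29 and WT mouse 33, bars are mean and SD, and the A226Y medians are 10.6%, 3.51% and 35.98% against WT medians of 17.4%, 5.97% and 66.6%. The inducible subunits were chosen as lower in A226Y, so the ratios are a description.

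In level per kilobase of exon, over all 18 mice, B2m came first at 1784 CPM per kb, followed by H2-K1 (474), H2-D1 (250), Psme1 (33.5), Psmb10 (19.9), Psme2 (12.1), Psmb8 (7.83), Tap2 (7.21), Tap1 (3.57) and Psmb9 (3.30). Each of B2m, H2-K1, H2-D1, Psme1 and Psmb10 exceeded the next member in this order in 18 of 18 mice, as did Tap2 over Tap1. Psme2 exceeded Psmb8 in 16 mice, Psmb8 exceeded Tap2 in 12, and Tap1 exceeded Psmb9 in 13, and the ranges over mice overlapped for these neighbours. Within a genotype the order of the means turned for the last 2 of these pairs, with Tap2 (6.46) above Psmb8 (6.20) in A226Y and Psmb9 (4.35) above Tap1 (4.29) in WT. With the longest transcript the order over 18 mice was the same, but Psmb10 then exceeded Psme2 in 11 mice, with Psme2 (20.1) above Psmb10 (19.5) in A226Y, and Psmb8 exceeded Tap2 in 18. Relative to each other, H2-K1 was at 1.42 to 2.10 times the level of H2-D1 in A226Y and at 1.74 to 2.14 times in WT. Psme1 was at 2.21 to 3.37 times the level of Psme2 in A226Y and at 2.41 to 3.19 times in WT.

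**Figure D3:**
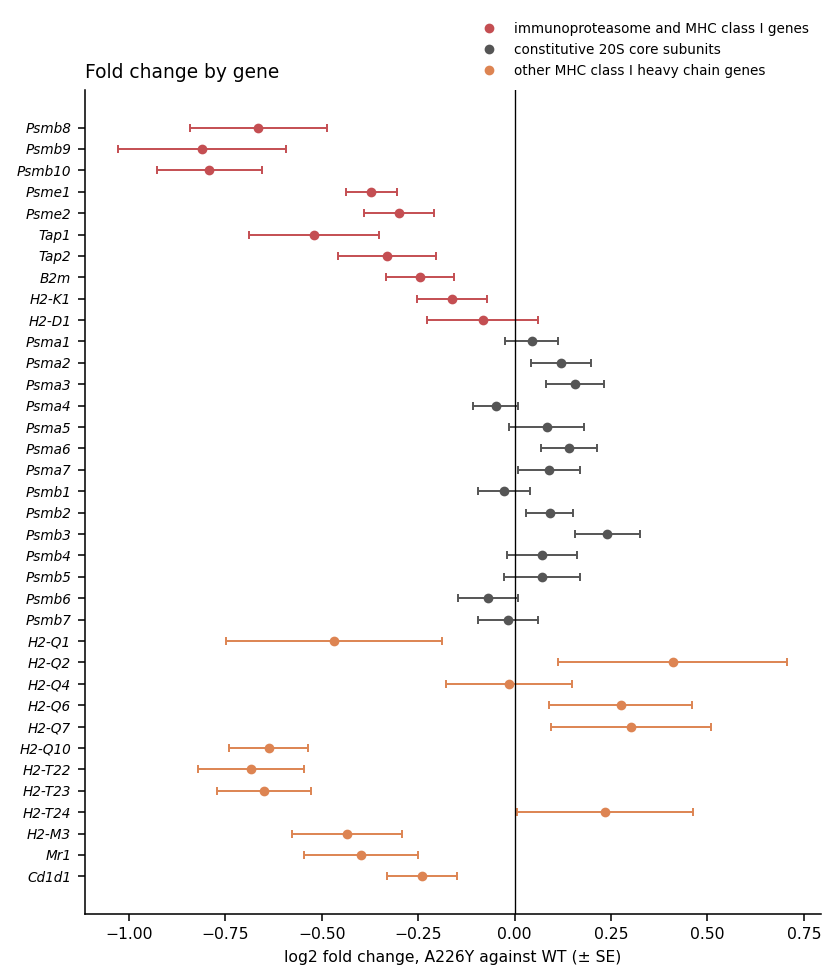
Log2 fold change, A226Y against WT, with its standard error, for the 10 genes, 14 constitutive core subunits and 12 other class I heavy chain genes. The 3 inducible catalytic subunits sit between -0.67 and -0.81, the constitutive subunits between -0.07 and 0.24.

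Other class I heavy chain genes were split. Of 12 tested, 4 were lower in A226Y and none higher, and the median over the 12 was -0.32 on the log2 scale. H2-Q10, which encodes a secreted class I molecule made by hepatocytes, lay at 729, 866 and 1057 CPM in A226Y and at 1026, 1313 and 1852 CPM in WT (log2 fold change -0.64, SE 0.10, adjusted p = 0.0015). For this gene 9 of 10 A226Y mice were below every WT mouse. H2-T23, the mouse gene for Qa-1, lay at 92.4, 116 and 142 CPM in A226Y and at 133, 177 and 274 CPM in WT (log2 fold change -0.65, SE 0.12, adjusted p = 0.0029), and again 9 A226Y mice were below every WT mouse. H2-T22 was lower by a log2 fold change of -0.68 (SE 0.14, adjusted p = 0.0041) and H2-M3, which presents formylated peptides, by -0.44 (SE 0.14, adjusted p = 0.047), a call that was lost with any of 15 mice left out (adjusted p up to 0.093 without WT mouse 21). H2-Q10, H2-T22 and H2-T23 stayed lower with either marker covariate, and H2-M3 did not (adjusted p = 0.15 with the pan-leukocyte and 0.23 with the Kupffer cell covariate). H2-Q6 and H2-Q7 had values of 0.28 and 0.30 and did not pass the test. Class I genes are close paralogs, and reads shared between them can be split or dropped in counting, so single values of H2 class I genes are uncertain.

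Peptide loading and trimming were represented by 12 genes, of which 3 were lower and none higher (median log2 fold change 0.03). Tapbp, or tapasin, which holds the class I chain at the transporter, lay at 65.5, 79.4 and 123 CPM in A226Y and at 89.1, 116 and 131 CPM in WT (log2 fold change -0.45, SE 0.11, adjusted p = 0.011). Its relative Tapbpl, a peptide editor, was lower by -0.36 (SE 0.09, adjusted p = 0.012). For both, 9 of 10 A226Y mice were below every WT mouse. Blmh, a cytosolic peptidase, was lower by -0.32 (SE 0.09, adjusted p = 0.021; 0.051 without WT mouse 14). With the Kupffer cell covariate Tapbp stayed lower, at -0.27 (adjusted p = 0.038), whereas the call of Tapbpl was lost at -0.23 (adjusted p = 0.054). Blmh had nearly the same log2 fold change with either covariate, -0.30, but lost its call (adjusted p = 0.077 with the Kupffer cell and 0.061 with the pan-leukocyte covariate).

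Among transcription factors known to act on class I and immunoproteasome promoters, 3 of 19 were lower and 1 was higher (median log2 fold change -0.13). The lower count was 6 by DESeq2 and 6 by edgeR without A226Y mouse 29. Irf1 lay at 20.98, 26.9 and 32.7 CPM in A226Y and at 27.6, 35.5 and 46.8 CPM in WT (log2 fold change -0.42, SE 0.10, adjusted p = 0.0086). Stat2, which acts downstream of type I interferon, was lower by -0.42 (SE 0.09, adjusted p = 0.0044). Creb1, which binds class I promoters, was higher by 0.24 (SE 0.08, adjusted p = 0.038). Nlrc5, the class I transactivator, lay at 13.1, 15.7 and 23.6 CPM in A226Y and at 12.1, 14.3 and 25.0 CPM in WT, with overlapping groups (log2 fold change 0.06, SE 0.13, adjusted p = 0.80). Upstream of them, 2 of 11 receptor and signalling genes were lower, the interferon-gamma receptor chain Ifngr2 (-0.24, SE 0.07, adjusted p = 0.037) and the kinase Tyk2 (-0.20, SE 0.06, adjusted p = 0.040). The calls of Ifngr2 and Tyk2 were lost without WT mouse 14 (adjusted p = 0.086 and 0.088) and without each of 7 and 8 further mice, and that of Creb1 without each of 12 mice (adjusted p up to 0.072, without WT mouse 24). Stat2 stayed lower with either marker covariate. The call of Irf1 was lost with the Kupffer cell covariate, at a log2 fold change of -0.31 (adjusted p = 0.065). Those of Creb1, Ifngr2 and Tyk2 were lost with both (adjusted p from 0.14 to 0.22). Their log2 fold changes with the Kupffer cell covariate were 0.14, -0.17 and -0.15.

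In the list of GTPases and chemokines that respond to interferon-gamma all 18 genes had a negative log2 fold change, 10 were called, and the median was -0.60. Without A226Y mouse 29, 15 were lower. The T cell chemokine Cxcl10 lay at 1.38, 1.67 and 3.26 CPM in A226Y and at 1.45, 3.48 and 7.70 CPM in WT (log2 fold change -1.05, SE 0.26, adjusted p = 0.012), and Cxcl9 differed by -0.93 (SE 0.24, adjusted p = 0.015). The GTPases Gbp7 (-0.87, SE 0.22, adjusted p = 0.014), Ifi47 (-0.78, SE 0.21, adjusted p = 0.017) and Iigp1 (-0.60, SE 0.16, adjusted p = 0.017) were lower too. Among type I interferon responsive genes all 19 had a negative value, with a median of -0.62, and 3 were called (7 by DESeq2, 16 without A226Y mouse 29): the nucleic acid sensor Zbp1 (-1.28, SE 0.42, adjusted p = 0.044), Ifi44 (-1.16, SE 0.32, adjusted p = 0.021) and Rtp4 (-0.70, SE 0.22, adjusted p = 0.036). These 3 calls were lost with a mouse left out, with adjusted p up to 0.11 for Zbp1 (without WT mouse 33, and above 0.05 without each of 12 further mice), 0.050 for Ifi44 (without WT mouse 14 or 33) and 0.083 for Rtp4 (without WT mouse 14, and above 0.05 without each of 11 further mice). With the Kupffer cell covariate none of Cxcl10, Cxcl9, Gbp7, Ifi47, Iigp1, Zbp1, Ifi44 and Rtp4 was called, although each still had a negative log2 fold change (adjusted p from 0.071 for Cxcl9 to 0.28 for Zbp1). With the pan-leukocyte covariate Cxcl10, Cxcl9 and Gbp7 kept their calls at log2 fold changes of -0.78, -0.60 and -0.51 (adjusted p = 0.0498, 0.041 and 0.049) and the other 5 did not.

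Over all the pathway lists, 119 genes were named, 113 were tested, 25 (22.1%) were lower and 2 (1.77%) were higher in A226Y, against 7.03% and 7.27% of all genes. The median of the 113 was -0.20 on the log2 scale. These lists were drawn up with earlier results of the same contrast known, so the shares are a description and not independent evidence of a direction. The count of 27 (14.3% of all genes were called) rose to 51 without A226Y mouse 29 (19.2% of all genes) and to 43 without WT mouse 6 (18.8%). It fell to 13 without WT mouse 14 (9.42%). With the pan-leukocyte covariate it was 14 (10.1%), with the Kupffer cell covariate 6 (7.37%) and with 4 surrogate variables 0 (0.374%). The 6 of 113 genes are a smaller share than the 7.37% of all genes.

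**Figure D4:**
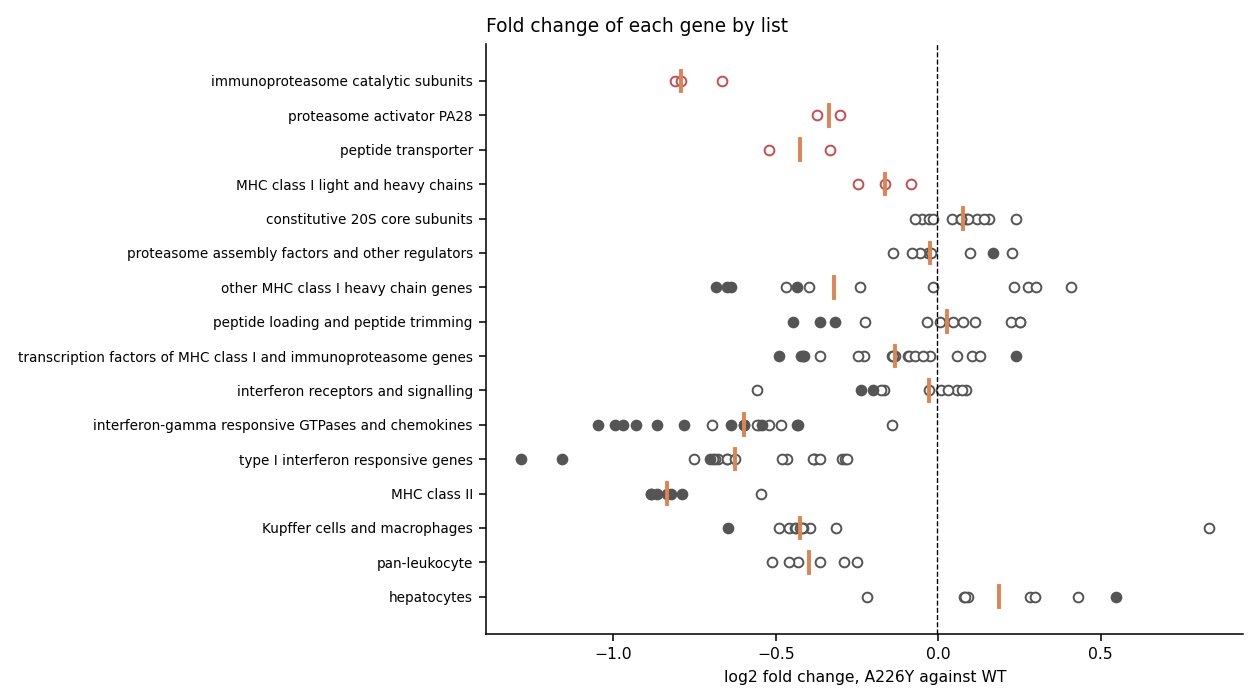
Log2 fold change, A226Y against WT, of each gene by list. Filled points passed an adjusted p of 0.05, the chosen genes (open red points) are not marked by any call, orange bars are list medians and the dashed line is the median of all genes at -0.0044; among the 16 lists drawn the medians run from -0.83 for MHC class II genes to 0.19 for hepatocyte markers.

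Within a genotype, where the choice of the genes plays no part, most pairs of them had a positive correlation across mice. Not all pairs tested passed, and these r were not set against those of other gene pairs. In WT all 45 pairs of the 10 genes had a positive Pearson r of log2 CPM, with a median of 0.80 and a range of 0.52 to 0.95 over 8 mice. In A226Y, 39 of 45 were positive, with a median of 0.55 and a range of -0.38 to 0.98 over 10 mice. The lowest pair in A226Y was Psme2 with H2-D1. The values of a pair come from the same libraries and scaling, and the part of leukocyte content in them was not tested.

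Tests were made for 20 pairs in each genotype by permutation, with Pearson's r and Spearman's rho as 80 tests adjusted together, and 22 of the 40 relations passed by r and 13 by rho. In WT, Psmb8 and Psmb9 had r = 0.91 (exact permutation adjusted p = 0.0053) and rho = 0.98 (adjusted p = 0.0053), with r = 0.90 after mice 6 and 33 were left out. In A226Y the same pair had r = 0.72 (permutation adjusted p = 0.024) and rho = 0.64 (adjusted p = 0.091), which fell to r = 0.29 without mice 7 and 29. Mice left out are those farthest from the median of the first gene, which narrows its range and can itself lower r. Psmb8 and Psmb10, encoded on different chromosomes, had r = 0.76 (permutation adjusted p = 0.0053) and rho = 0.88 (adjusted p = 0.013) in A226Y, with r = 0.73 without mice 7 and 29. In WT they had r = 0.91 (exact permutation adjusted p = 0.013) and rho = 0.86 (adjusted p = 0.030), with r = 0.80 without mice 6 and 33. H2-K1 and H2-D1 had r = 0.98 (permutation adjusted p = 0.018) and rho = 0.76 (adjusted p = 0.037) in A226Y, with r = 0.60 without mice 11 and 29. Tap1 and Tap2 did not pass in A226Y (r = 0.52, permutation adjusted p = 0.19), with r = -0.49 without mice 7 and 29. Nor did they in WT (r = 0.74, exact permutation adjusted p = 0.051). B2m passed with neither H2-K1 (r = 0.45 in A226Y and 0.64 in WT) nor H2-D1 (0.43 and 0.64). Without mice 5 and 29 in A226Y, these r were -0.13 and -0.17. Without mice 6 and 33 in WT, they were -0.42 and 0.20. Psme1 and Psme2 passed by r in WT (0.82) but not in A226Y (0.42).

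Psmb8 was also set against transcription factors. With Irf1, r was 0.85 in WT (exact permutation adjusted p = 0.024; rho = 0.98, adjusted p = 0.0053; 0.81 without mice 6 and 33) and 0.43 in A226Y (permutation adjusted p = 0.28; rho = 0.52, adjusted p = 0.19). Nlrc5 gave r = 0.81 with Psmb8 in A226Y (permutation adjusted p = 0.048; rho = 0.45, adjusted p = 0.25), which dropped to 0.14 without mice 7 and 29, and r = 0.50 in WT (exact permutation adjusted p = 0.27; rho = 0.21, adjusted p = 0.66).

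The pan-leukocyte gene Ptprc moved with B2m in both genotypes. In WT r was 0.87 (exact permutation adjusted p = 0.024) and rho 0.98 (adjusted p = 0.0053), with r = 0.92 without mice 6 and 33, and in A226Y r was 0.77 (permutation adjusted p = 0.019) and rho 0.87 (adjusted p = 0.014), with r = 0.66 without mice 5 and 29. For Psmb8 and Ptprc in A226Y, r was 0.88 (permutation adjusted p = 0.018) and rho 0.67 (adjusted p = 0.071), falling to r = 0.35 without mice 7 and 29. In WT this pair did not pass (r = 0.76, exact permutation adjusted p = 0.054; rho = 0.67, adjusted p = 0.14; r = 0.29 without mice 6 and 33). Each inducible subunit had a negative r with its constitutive counterpart in WT, and the pair of Psmb10 and Psmb7 passed by both coefficients. Psmb10 and Psmb7 had r = -0.88 (exact permutation adjusted p = 0.018) and rho = -0.88 (adjusted p = 0.024), with r = -0.75 without mice 4 and 6. In A226Y r was -0.24 (permutation adjusted p = 0.55) and rho -0.09 (adjusted p = 0.82). Psmb8 and Psmb5 had r = -0.81 in WT (exact permutation adjusted p = 0.037; rho = -0.76, adjusted p = 0.068), which became -0.34 without mice 6 and 33, and r = 0.09 in A226Y (permutation adjusted p = 0.77; rho = -0.02, adjusted p = 0.97). Psmb9 and Psmb6 did not pass in WT (r = -0.60, exact permutation adjusted p = 0.17; rho = -0.50, adjusted p = 0.27; r = -0.07 without mice 6 and 33) or in A226Y (r = -0.14, permutation adjusted p = 0.73; rho = -0.31, adjusted p = 0.42). Differences in r between the genotypes were not tested.

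**Figure D5:**
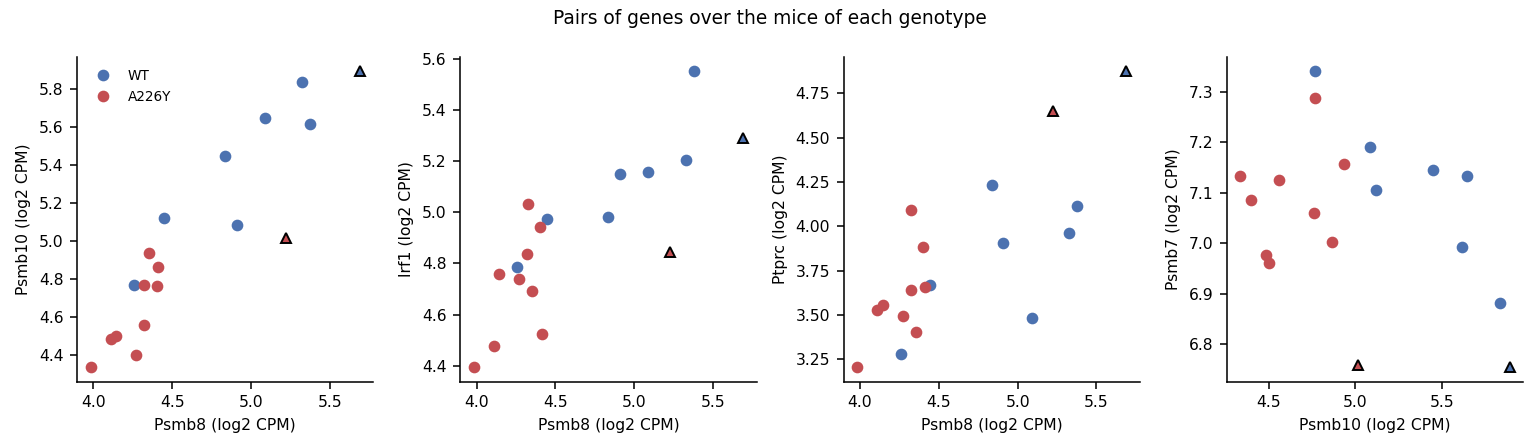
Log2 CPM of 4 pairs of genes, with 1 point per mouse and triangles for A226Y mouse 29 and WT mouse 33. Psmb8 rises with Psmb10 in each genotype (r = 0.76 in A226Y and 0.91 in WT) and with Irf1 in WT (r = 0.85), whereas Psmb7 falls as Psmb10 rises in WT (r = -0.88).

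The genes whose pattern was most like that of Psmb8, Psmb9 and Psmb10 were sought among 11931 others, as Pearson r over 18 mice with the mean of the 3 after the genotype means were removed. The 10 closest were Ifit3 (r = 0.95), Zbp1 (0.93), Cmpk2 (0.93), Ifi47 (0.92), H2-T22 (0.92), Tmem106a (0.91), Ifit3b (0.91), Xaf1 (0.90), Gbp3 (0.90) and Dhx58 (0.89). Of these, Zbp1, Ifi47, H2-T22 and Gbp3 were lower in A226Y, as were 7.03% of all genes. Gbp3 differed by a log2 fold change of -0.99 (SE 0.28, adjusted p = 0.025; 0.064 without WT mouse 14, and 0.061 and 0.13 with the pan-leukocyte and Kupffer cell covariates). The others did not pass the test, as with Ifit3 at -0.68 (SE 0.27, adjusted p = 0.10). On the same scale the remaining chosen genes ranged from r = 0.62 for H2-D1 to 0.88 for Psme1. None of these r was computed again with a mouse left out.

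Overlapping annotation limits single values. Psmb9 and Tap1 overlap at their starts on opposite strands, and the Tap1 count was 160% of that of Psmb9. Psme1 overlaps Emc9, whose count was 24.3% of that of Psme1, and Tap2 overlaps the antisense gene Gm15821, whose count was 29.6% of that of Tap2. Whether the counting used strand is not given in the sources used here, and without it reads of overlapping genes cannot be told apart.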

How the data were processed

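Liver RNA of 18 mice, 1 library each, was represented by unnormalised read counts for each Ensembl gene, whole numbers as the authors deposited them. The study's methods name RSEM on Ensembl annotation, whereas the submitters' processing notes name fastp, STAR, featureCounts and GRCm38; which of these made the counts was not settled. Genotypes and mouse numbers came from the labels. Gene symbols, positions and lengths were taken from GENCODE M21 (22291 of 22524 identifiers matched) and upstream sequences from RefSeq. Genes reaching 10 counts in 50% or more of the A226Y or of the WT samples were kept (13353) and tested with edgeR 4.0.16 (quasi-likelihood, TMM, two-sided, Benjamini-Hochberg adjustment over all genes) in R 4.3.3, as tested on simulated data first. SE values are standard errors of the log2 fold change. CPM values used TMM-scaled library sizes, and log2 CPM a prior count of 2. Correlations within a genotype used 100000 permutations (A226Y) or all of them (WT), two-sided.

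The genes and lists were chosen with earlier results of these data known. Beside the chosen genes and their counterparts, named genes were those of the pairs, in each list the 5 called genes of smallest p or, with none, the 2 of smallest p, and the 10 closest patterns; marker genes and other list members are named where a count turns on them. Alternatives were DESeq2 1.42.0, limma-voom (limma 3.58.1), sva 3.50.0 with 4 surrogate variables, other scalings and filters, length and GC offsets, and each mouse left out. The marker covariates and the joint removal of WT mice 13 and 33 were added after seeing the data. Counts of replicates within a genotype differed beyond sampling noise (chi-square per degree of freedom of at least 19.8), so each was 1 sample. Intervals from counting alone would not cover the variation between mice. Protein sequences were not used here. Not every listed gene, nor every gene that this rule selects, is reported by name, and genes left unnamed enter the counts only.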

Additional observations from a re-analysis of the deposited data

Results flagged for a closer look

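Of 32 groups of values examined (10 genes, 3 constitutive subunits and 3 ratios in each genotype), 8 held a mouse whose gap to the nearest other, as a share of the group's range, was above Dixon's critical value, where chance gives about 1 in 20. In A226Y, mouse 29 stood highest for Psmb8 (37.3 CPM), Tap1 (32.1 CPM), H2-K1 (1969 CPM), H2-D1 (1216 CPM) and Psmb8 as a percent of Psmb5 (20.3%). The gap took up 0.745, 0.609, 0.85, 0.83 and 0.539 of the range, against a critical value of 0.466. The groups are not independent, since 5 of the 8 values come from this mouse, which also had the highest A226Y marker sums of leukocytes, Kupffer cells and neutrophils. Mouse 23, the library of the largest total count, stood highest in A226Y for Psme2 (25.5 CPM, gap 0.558) and Psmb5 (66.0 CPM, gap 0.533). In WT, mouse 33 stood highest for H2-D1 (875 CPM, gap 0.575 against 0.526).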

How the results depend on the processing

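With 1 mouse left out at a time, genes called ranged from 1255 to 2560 (1910 with all mice), pathway genes called from 13 to 51 (27 with all) and chosen genes called from 4 to 10 (6 with all), the lowest of the first 2 counts without WT mouse 14 and the highest of all 3 without A226Y mouse 29. With 4 surrogate variables, 50 genes, 0 pathway genes and 0 of the chosen genes were called by edgeR, with 1989 genes at an unadjusted p under 0.05. Of the chosen genes 9 of 10 stayed below 0 there (median -0.11), B2m was at 0.01, and Zbp1 turned to 0.031. With the pan-leukocyte covariate 1345 genes, 14 pathway genes and 3 chosen genes were called, and with the Kupffer cell covariate 984 genes, 6 pathway genes and 2 chosen genes. Without WT mice 13 and 33 these were 1120, 10 and 2. Those last 3 settings were chosen after seeing the data, and the cause of the changes was not tested. Scaling, filter, test, length and GC alternatives left 1572 to 2418 genes and 4 to 7 chosen genes called. Library size alone moved the median of all genes to 0.04. Of the named genes outside the choice, H2-Q10, H2-T22, H2-T23, Stat2, Psme3 and Tapbp lost their call only with surrogate variables, whereas H2-M3, Creb1, Zbp1, Rtp4, Tyk2 and Ifngr2 lost it when any of 8 to 15 single mice was left out. The count of 22 relations was 22 or 23 under the other scaling and prior count. Bulk counts limit these results to tissue levels.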
